A study of Mus musculus with 18 samples.

Results

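The core machinery that turns a hairpin transcript into a silencing complex was followed through 10 genes, Drosha, Dgcr8, Xpo5, Dicer1, Tarbp2, Prkra, Ago1, Ago2, Ago3 and Ago4. They were taken by symbol from the 78317 genes of the expression table, each matched 1 row, and all 10 passed the filter on low counts with the 16544 genes that were tested. Of the 10, Ago4 was lower in cells with strong signal of the viral reporter, at 65.9% of the level in cells with weak signal, and no other member passed the test in that comparison. No member passed in any comparison of a knockdown vector with the scrambled vector.

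The libraries came from wild-type CD1 mouse kidneys of embryonic day 14, isolated and grown as explants. All explants met AAV2, an adeno-associated virus that serves as a gene carrier, during 4 hours in medium, and spent the next 72 hours embedded in collagen I and matrigel. Every vector drove mCherry, a red fluorescent reporter, from the CAG promoter, with 2 shRNA cassettes in a mir30 scaffold downstream. The Mylk-shRNA vector aimed both cassettes at Mylk (myosin light chain kinase), the Rock1/2-shRNA vector aimed 1 at Rock1 and 1 at Rock2, and the scramble-shRNA vector held shuffled versions of the Rock1 and Rock2 target sequences. Explants of a condition were pooled and sorted into an mCherry-positive fraction, the top 25% of the signal, and an mCherry-negative fraction, the bottom 50%. The 3 vectors and 2 fractions give 6 groups of 3 libraries, 1 per litter, and 18 libraries from 9 cultures. Every group, the scramble-shRNA groups and the negative fractions included, came from explants exposed to a hairpin vector, so no comparison here is with cells that never met one.

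In the textbook pathway, Drosha and its partner Dgcr8 form the Microprocessor, which cuts the hairpin out of a primary transcript in the nucleus. Xpo5 carries the hairpin to the cytoplasm with Ran, Dicer1 trims it to a short duplex with the help of its partners Tarbp2 and Prkra, and an Argonaute protein keeps 1 strand to find and silence target transcripts. An shRNA in a mir30 scaffold enters at the Drosha step, and in the mouse kidney the loss of Dicer from nephron progenitors is known to deplete those cells.

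The natural mir-30a hairpin is printed to show what such a scaffold presents to Drosha and Dicer, with the mature arms in capitals. The labels do not say which mir30 member was used, and the cassette sequences were not analysed here. All microRNA sequences are from RefSeq on GRCm38.p6, the hairpin at chr1:23272269-23272339 on the plus strand.
mir-30a hairpin: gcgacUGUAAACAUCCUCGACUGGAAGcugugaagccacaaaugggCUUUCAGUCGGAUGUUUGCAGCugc
The 5p arms of miR-30a, miR-30c and miR-30e carry the same seed, bases 2 to 8, shown in capitals.
miR-30a-5p: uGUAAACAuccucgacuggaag
miR-30c-5p: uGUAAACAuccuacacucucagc
miR-30e-5p: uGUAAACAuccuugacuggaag
MicroRNAs and processed hairpins carry no poly(A) tail and were not measured by these libraries, which report on the transcripts of the machinery and of microRNA host genes.

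Library depth ranged from 3121616 to 12170814 counts with a median of 7581370. Levels are given as CPM, the deposited counts scaled to the same total in each library, and the members rested on 27 (Ago3) to 1551.5 (Ago2) counts in a library. Libraries of litter 3 tended to a higher share of counts from mitochondrial genes, 3.948 to 9.158% against 2.011 to 4.024% in litters 1 and 2. The ranges overlapped between 3.948 and 4.024%. Results that change without litter 3 are given with both values. The targeted transcripts did not pass the test in the cells that carried most reporter. Mylk stood at 169, 187 and 168 CPM in the Mylk-shRNA positive libraries of litters 1, 2 and 3 and at 211, 181 and 198 CPM in the scramble-shRNA positive libraries, 87.9% of the scramble level (95% interval 71.3 to 108%). Rock1 and Rock2 stood at 94.1% (76.7 to 115%) and 88.7% (70.8 to 111%) of the scramble level in the Rock1/2-shRNA positive libraries, and the adjusted p was 1 for all 3 in edgeR's quasi-likelihood test. Nephron progenitor, early nephron, ureteric and stromal markers of the labelled tissue, embryonic kidney, were found in both fractions.

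Per kilobase of annotated exon, a scale on which genes can be set side by side, Prkra had the highest level of the 10 at 18.09 CPM per kb over the 18 libraries. Xpo5, Ago2 and Drosha followed at 8.532, 8.51 and 7.907 CPM per kb, and Ago1 lay at 6.6. Dgcr8, Tarbp2 and Dicer1 stood lower at 3.767, 2.928 and 2.499 CPM per kb, Ago4 at 1.602 and Ago3 at 0.4967. The Argonaute transcripts thus lay in the order Ago2, Ago1, Ago4, Ago3 on this scale. Exon lengths are unions over all annotated transcripts in GENCODE M21, so a gene with long or many isoforms is placed low. In each of the 10 genes, groups next to each other in the order of the 6 means differed by less than the larger of their SDs. That does not hold for groups further apart in the order. Ago4 lay at 6.671 to 9.584 CPM in Mylk-shRNA positive and 13.02 to 15.71 CPM in Mylk-shRNA negative libraries, without overlap.

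**Figure D1:**
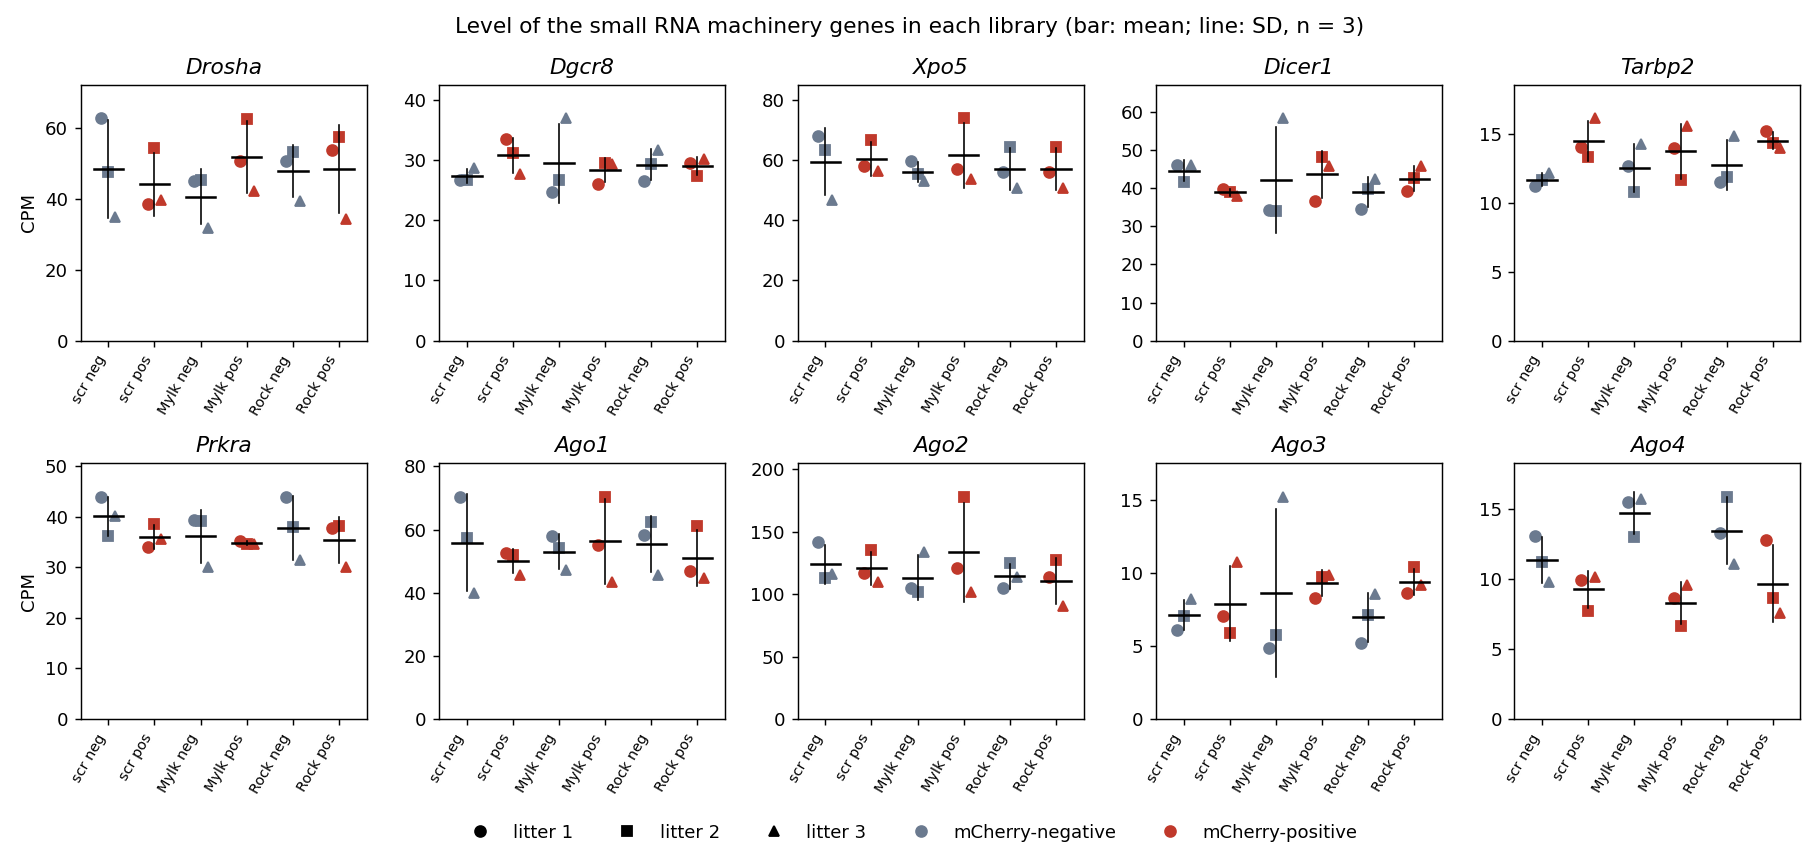
CPM of the 10 machinery genes in each of the 18 libraries, by vector and mCherry fraction (scr, scramble-shRNA; Mylk, Mylk-shRNA; Rock, Rock1/2-shRNA; neg, negative; pos, positive), with 1 symbol per litter, a bar for the mean and a line for the SD over 3 libraries. Ago4 lies lower in the positive fraction in 8 of 9 cultures and Tarbp2 higher in 8 of 9. The ranges of the 2 fractions overlap for every gene, Ago4 included.

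Drosha, the nuclease of the Microprocessor, kept about the same level in both fractions and varied more between litters. In the positive fraction it stood at 38.5, 54.4 and 39.6 CPM in scramble-shRNA litters 1, 2 and 3, at 50.7, 62.7 and 42.3 in Mylk-shRNA and at 53.8, 57.4 and 34.4 in Rock1/2-shRNA. In the negative fraction the same order gave 62.8, 47.6 and 35.0 CPM, then 45.1, 45.2 and 31.8, then 50.6, 53.4 and 39.5. The groups overlapped in every comparison, and the highest and the lowest of the 18 values were both in the negative fraction. Averaged over the 3 vectors, the positive fraction stood at 101% of the negative fraction (95% interval 85.7 to 120%, edgeR adjusted p = 0.916). In litter 3 Drosha ranged from 31.8 to 42.3 CPM, against 38.5 to 62.8 CPM in litters 1 and 2, so the litter ranges overlapped only between 38.5 and 42.3 CPM.

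Dgcr8, the RNA-binding partner that positions Drosha on the hairpin, was the steadier of the pair. It ranged from 26.0 to 33.5 CPM in the 9 positive libraries with a median of 29.5, and from 24.7 to 36.9 CPM in the 9 negative libraries with a median of 26.7. The ranges overlapped over nearly their whole length, and the Mylk-shRNA negative library of litter 3 held the highest value. The positive fraction stood at 99.2% of the negative fraction (87.7 to 112%). Exons of Dgcr8 overlap those of Trmt2a on the other strand in the annotation, and since the use of strand in counting is not stated, reads there cannot be told apart. On the same strand they overlap Gm24572, Gm49776 and Mir1306, and those of Drosha overlap Gm47288 on its own strand. How such shared reads were counted is not stated. The deposited count of Dgcr8 was a fraction in 11 of 18 libraries.

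Xpo5, the export receptor, was almost level across the design. Its 6 group means lay between 55.9 ± 3.4 CPM in Mylk-shRNA negative libraries and 61.5 ± 10.8 CPM in Mylk-shRNA positive libraries (SD, n = 3 each), a ratio of 1.1. Positive libraries ranged from 50.7 to 73.9 CPM and negative libraries from 46.8 to 68.0 CPM. The positive fraction stood at 100% of the negative fraction (95% interval 90 to 111%, edgeR adjusted p = 0.997).

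Dicer1, the cytoplasmic nuclease, showed no fraction difference on average and opposite signs by vector. In scramble-shRNA cultures of litters 1, 2 and 3 it stood at 39.9, 38.9 and 38.1 CPM in the positive and 46.2, 41.6 and 46.3 CPM in the negative fraction, so every positive value lay below every negative one. In Rock1/2-shRNA cultures it stood at 39.2, 42.6 and 45.9 CPM in the positive and 34.7, 39.8 and 42.5 CPM in the negative fraction, higher in the positive fraction of each culture. Mylk-shRNA cultures gave 36.7, 48.4 and 45.9 CPM against 34.3, 34.2 and 58.4 CPM, with the culture of litter 3 going against the others. The averaged positive fraction stood at 96.4% of the negative fraction (83.3 to 112%, edgeR adjusted p = 0.733). The edgeR test of a difference between vectors gave Dicer1 an adjusted p of 1 (unadjusted 0.414).

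Tarbp2 and Prkra, the RNA-binding partners of Dicer, leaned in opposite directions without passing the test. Tarbp2 was higher in the positive fraction in 8 of 9 cultures, at 11.7 to 16.2 CPM against 10.8 to 14.9 CPM, and the averaged positive fraction stood at 112% of the negative (97.6 to 129%, edgeR adjusted p = 0.201). Prkra was lower in 6 of 9 cultures, at 30.1 to 38.6 CPM against 30.1 to 44.0 CPM, and stood at 89.6% (80.3 to 100%, adjusted p = 0.118). Leaving out the Mylk-shRNA negative library of litter 3 gave Prkra a log2 fold change of -0.20 with an adjusted p of 0.0413, and leaving out all of litter 3 gave -0.20 with 0.0521. The deposited count was a fraction in 13 of 18 libraries for Tarbp2 and in 1 for Prkra, and how fractions arose is not stated.

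Among the Argonautes, Ago2, which is known to cut closely matched targets, did not pass the test of a difference between fractions. It stood at 117, 135 and 110 CPM in the positive and 142, 113 and 116 CPM in the negative scramble-shRNA libraries of litters 1, 2 and 3. Mylk-shRNA gave 121, 178 and 102 CPM against 105, 102 and 134 CPM, and Rock1/2-shRNA gave 114, 127 and 90.7 CPM against 104.5, 125 and 113 CPM. The fractions overlapped in each vector, and the highest and lowest values of all were both in the positive fraction. The averaged positive fraction stood at 99.8% of the negative (87.3 to 114%, edgeR adjusted p = 0.985). Exons of Ago2 overlap those of Chrac1 on the other strand, with the same limit on strand as for Dgcr8. The deposited count of Ago2 was a fraction in 10 of 18 libraries.

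Ago1 ranged from 43.4 to 70.3 CPM in the positive and from 39.8 to 70.4 CPM in the negative fraction. It was lower in the positive fraction in 7 of 9 cultures, but the averaged difference, 92.2% of the negative fraction (80.2 to 106%), did not pass (edgeR adjusted p = 0.377). Like Drosha, it was low in litter 3, at 39.8 to 47.1 CPM against 46.8 to 70.4 CPM in litters 1 and 2.

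Ago3, the least abundant of the 10 per kilobase, rested on 27 to 88 counts per library. It stood at 7.10, 5.89 and 10.8 CPM in the positive and 6.14, 7.07 and 8.23 CPM in the negative scramble-shRNA libraries. Mylk-shRNA gave 8.28, 9.77 and 9.87 CPM against 4.86, 5.76 and 15.3 CPM, and Rock1/2-shRNA gave 8.65, 10.4 and 9.18 CPM against 5.22, 7.15 and 8.55 CPM. The positive library was the higher in 7 of 9 cultures, and the negative Mylk-shRNA library of litter 3 held the highest value of all. The averaged log2 fold change was 0.21 (SE 0.20, edgeR adjusted p = 0.468). It was 0.40 with an adjusted p of 0.033 without that 1 library and 0.40 with an adjusted p of 0.03 without litter 3, so the call turned on litter 3.

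Ago4 was the member that differed between fractions. In scramble-shRNA cultures of litters 1, 2 and 3 it stood at 9.94, 7.73 and 10.1 CPM in the positive and 13.1, 11.3 and 9.77 CPM in the negative fraction. Mylk-shRNA cultures gave 8.64, 6.67 and 9.58 CPM against 15.5, 13.02 and 15.7 CPM, and Rock1/2-shRNA cultures gave 12.8, 8.64 and 7.59 CPM against 13.3, 15.9 and 11.1 CPM. The positive library was the lower in 8 of 9 cultures, the exception being scramble-shRNA of litter 3, and only in Mylk-shRNA did the 3 positive libraries all lie below the 3 negative ones. Its counts were low, from 28 to 83.5 in the positive and from 38 to 175.5 in the negative libraries.

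The averaged log2 fold change of Ago4 was -0.60 (SE 0.11, edgeR adjusted p = 0.000395), and the positive fraction stood at 65.9% of the negative (95% interval 55.9 to 77.7%). Over the genes tested, 5558 of 16544 were called in this comparison, 33.6%, of which 17.6% were higher and 16% lower, so 1 called member of 10 is a smaller share than the background. The median log2 fold change was -0.01 over the 10 members and -0.03 over all genes tested. In bulk samples, fewer cells of a type that holds a transcript and less transcript per cell cannot be told apart. Depth went with fraction, at 3121616 to 9662654 counts per positive and 3890033 to 12170814 per negative library, and its part was not tested. Without litter 3 the Ago4 value was -0.67 (adjusted p = 0.000944).

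Cell-type markers also differed between the fractions, some lower and some higher in the positive fraction, and were not related to Ago4 by a test. All 6 nephron progenitor markers and all 5 early nephron markers were called lower in the positive fraction, with summed levels of 419.9 to 565.6 against 456.7 to 957.6 CPM and 176.7 to 233.2 against 394.5 to 692.8 CPM. Of the 6 ureteric markers 5 were lower, at 45.1 to 78.92 against 79.69 to 125.7 CPM in sum, with Wnt9b at 0 in 2 positive libraries. All 6 stromal markers were higher, at 3977 to 6727 against 2739 to 3452 CPM. Of the 5 smooth muscle and pericyte markers 4 were higher, at 762.5 to 1517 against 401.1 to 617.5 CPM. All 6 macrophage markers were higher, at 152.2 to 332.1 against 4.893 to 11.51 CPM, and in the negative fraction Adgre1 was at 0 in 4 libraries and C1qa in 1. Of the 6 endothelial markers 3 were lower and 1 was higher, at 122.1 to 218.1 against 157.6 to 257.5 CPM. All 4 erythroid markers that were tested were higher, at 201.4 to 1788 against 72.05 to 346.2 CPM in sum over 6, and 3 of 6 cell cycle markers were higher, at 773.5 to 1072 against 589.3 to 952 CPM. The part of cell composition in the Ago4 difference was not tested.

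**Figure D2:**
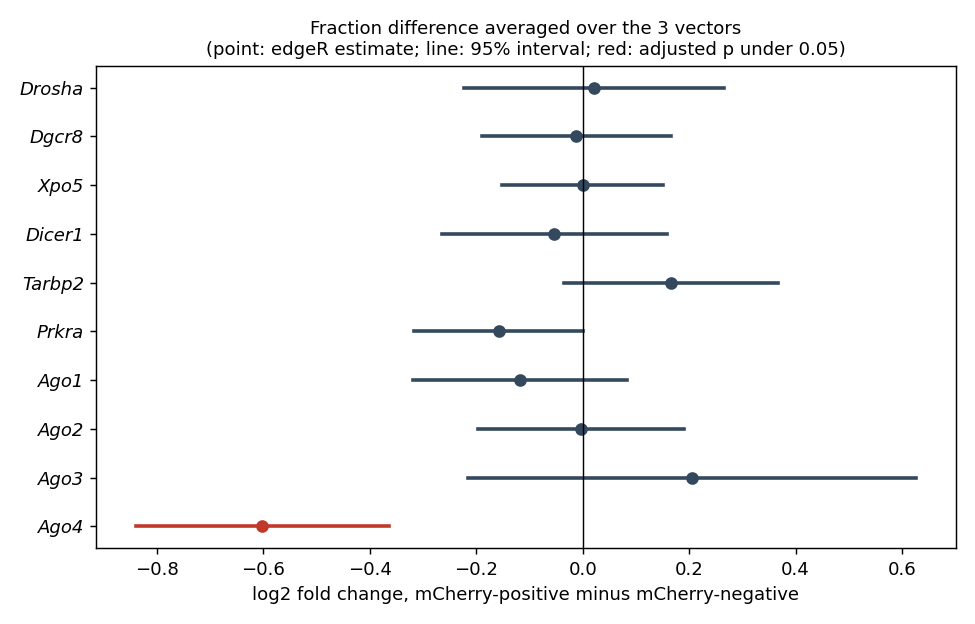
Log2 fold change of each machinery gene, mCherry-positive minus mCherry-negative and averaged over the 3 vectors, with its 95% interval from edgeR (red where the adjusted p is under 0.05). The interval of Ago4, from -0.84 to -0.36, lies below 0, and those of the others reach or cross 0.

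Within single vectors, Ago4 was called in Mylk-shRNA cultures only, and a difference between vectors did not pass its own test. The log2 fold change was -0.88 in Mylk-shRNA (SE 0.20, edgeR adjusted p = 0.00504), -0.56 in Rock1/2-shRNA (SE 0.20, adjusted p = 0.0789) and -0.37 in scramble-shRNA (SE 0.20, adjusted p = 0.259). Ago4 was the only member called in Mylk-shRNA, where 13.2% of genes were called, 8.07% higher and 5.14% lower. No member was called in the scramble-shRNA cultures, where 12.3% of genes were (7.43% higher, 4.85% lower), or in the Rock1/2-shRNA cultures, where 11.2% were (6.94% higher, 4.3% lower). With litter as a block, Ago4 passed in Rock1/2-shRNA too, at -0.56 with an adjusted p of 0.0257, and it passed at -0.75 with 0.0299 when the positive library of litter 1 was left out. The test of a difference between the 3 vectors in the fraction effect called 0 of 16544 genes (0%), with 100 at an unadjusted p under 0.05 in edgeR and 0 called by DESeq2, and gave Ago4 an unadjusted p of 0.216.

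The 4 Argonaute genes were also compared with each other inside each culture, by the log2 ratio of the positive to the negative fraction, with an exact sign-flip permutation test over 9 cultures (2-sided, 512 arrangements, smallest possible p 0.00391) and p-values adjusted over the 6 pairs. Cultures of a litter are not fully separate, since 3 came from each, while the test treats all 9 as separate. Its p-values are therefore given as a description only. The same libraries gave the call of Ago4, so this comparison is no separate support for that call. Ago4 lay below Ago3 by 0.83 ± 0.61 log2 units (SD, n = 9) in 9 of 9 cultures (exact permutation test, adjusted p = 0.0234). It lay below Ago2 by 0.58 ± 0.60 in 8 of 9 cultures (exact permutation test, adjusted p = 0.0352) and below Ago1 by 0.48 ± 0.49 in 7 of 9 (exact permutation test, adjusted p = 0.0469). For the other pairs the same exact permutation test gave adjusted p-values of 0.0938 (Ago3 against Ago1), 0.136 (Ago3 against Ago2) and 0.348 (Ago2 against Ago1). Ago3, Ago1 and Ago4 lie next to each other in that order on the same strand of chromosome 4, with only the predicted genes Gm12928 and Gm12929 annotated between them. Ago1, the direct neighbour of Ago4, was lower in the positive fraction in 7 of 9 cultures without passing the edgeR test.

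**Figure D3:**
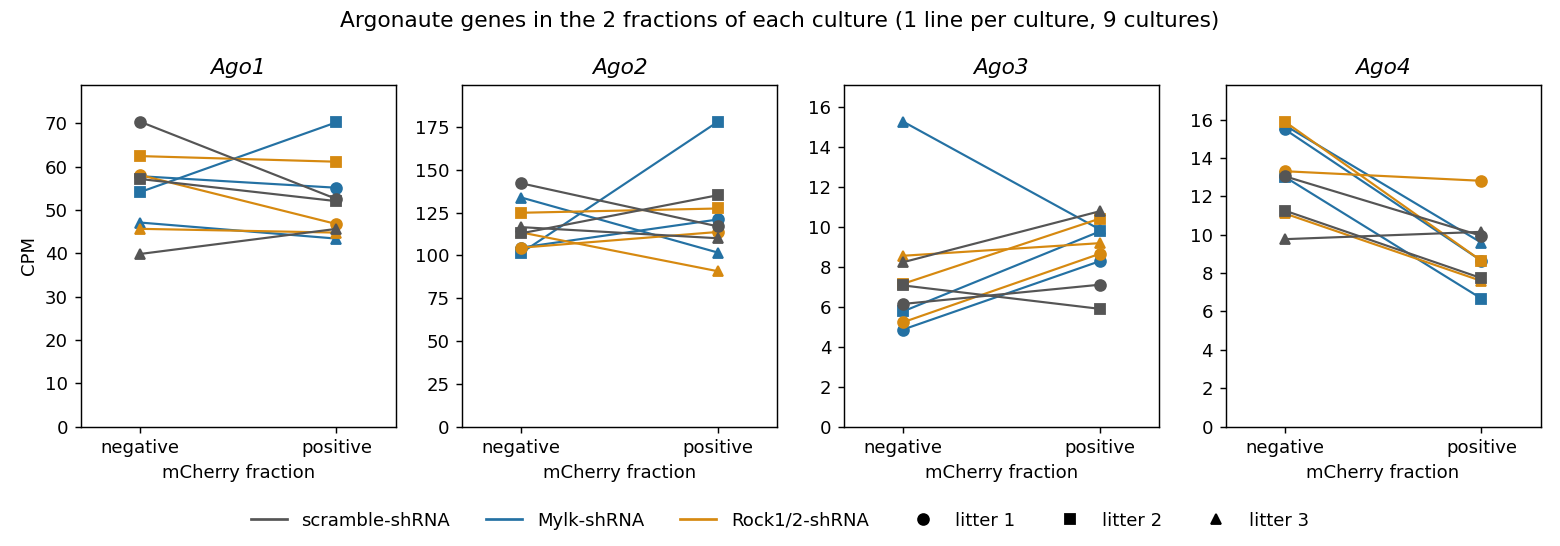
CPM of the 4 Argonaute genes in the negative and positive fraction of each of the 9 cultures, 1 line per culture, coloured by vector with a symbol for the litter. Lines fall for Ago4 in 8 of 9 cultures and for Ago1 in 7 of 9, and rise for Ago3 in 7 of 9. Those of Ago2 fall in 4 and rise in 5.

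A knockdown vector against the scrambled vector, within a fraction, asks whether the target sequence of the hairpins went with a change of the machinery. Every vector held 2 cassettes, so the presence of hairpins is not compared here. No gene of 16544 was called in any of the 4 such comparisons (0% each), and DESeq2 also called 0 in each. In edgeR an unadjusted p under 0.05 was reached by 258 genes for Mylk-shRNA in the positive and 285 in the negative fraction, and by 145 and 200 for Rock1/2-shRNA. These comparisons share their scramble-shRNA libraries within a fraction. In the positive fraction, where the reporter is at its highest, the members of smallest p were Dgcr8 (log2 fold change -0.15, SE 0.15) and Drosha (0.20, SE 0.20) for Mylk-shRNA. For Rock1/2-shRNA they were Ago3 (0.33, SE 0.36) and Ago2 (-0.13, SE 0.16). In the negative fraction they were Ago4 (0.36, SE 0.18) and Drosha (-0.25, SE 0.20) for Mylk-shRNA, and Ago4 (0.23, SE 0.18) and Dicer1 (-0.20, SE 0.17) for Rock1/2-shRNA. All had an edgeR adjusted p of 1. The 95% intervals are from the fit without litter as a block. They leave room for changes of a size that this fit of 3 libraries a group could not show. Examples are 85.7 to 137% of the scramble level for Ago2 and 84.7 to 142% for Dicer1 in Mylk-shRNA positive cells.

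**Figure D4:**
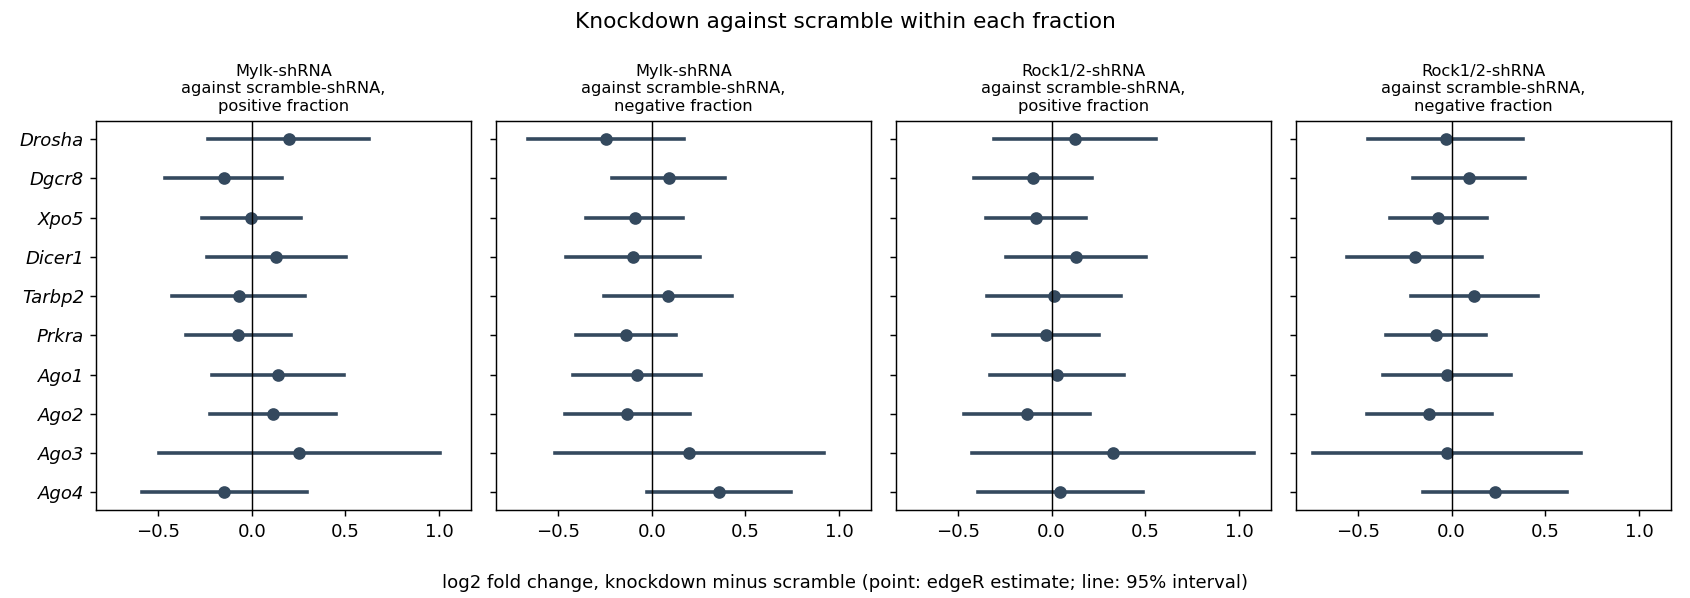
Log2 fold change of each machinery gene for Mylk-shRNA and Rock1/2-shRNA against scramble-shRNA in each fraction, with its 95% interval from edgeR. All 40 intervals span 0, and those of Ago3, the gene with the fewest counts per kilobase, are the widest.

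Around the core, 5 lists of pathway genes were described in the averaged fraction comparison by how many members were called, against the background of 33.6%. Of 13 Microprocessor cofactors, 0 were called higher and 2 lower (15.4%), with a median log2 fold change of -0.07. Ncbp2 was higher in 9 of 9 cultures without being called. Hnrnpa1, which is known to bind the loop of the miR-18a precursor and help its cleavage, stood at 611.9 to 706.9 CPM in the positive and 696.8 to 969.7 CPM in the negative fraction and was lower in 9 of 9 cultures (log2 fold change -0.41, SE 0.07, edgeR adjusted p = 7.41e-05). Ilf2, a subunit of a complex that binds primary microRNA transcripts, was lower by a small step (-0.17, adjusted p = 0.0151).

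Export, tailing and editing genes gave 1 called higher and 3 lower of 11 tested, with a median of -0.06. The share called, 36.4%, was near the background of 33.6%. The largest step was in Trim71, a let-7 target that works on the let-7 and Lin28 axis of early development. It ranged from 1.81 to 3.81 CPM in the positive and from 7.33 to 13.5 CPM in the negative fraction, so the fractions did not overlap (log2 fold change -1.73, SE 0.16, edgeR adjusted p = 1.02e-07). Tut4, which adds uridines to let-7 precursors, was lower (-0.19, adjusted p = 0.0155), as was Adarb1, an adenosine deaminase that edits RNA (-0.50, adjusted p = 0.016). Rangap1, which drives the Ran cycle on which export depends, was higher in 9 of 9 cultures (0.27, adjusted p = 0.0117). Lin28a and Lin28b were below the filter, with at most 1 and 10 counts in a library.

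Of 11 genes of Argonaute loading, 0 were called higher and 2 lower (18.2%), with a median of -0.09. The lower genes were both cytosolic forms of the chaperone that opens Argonaute for its duplex, Hsp90aa1 (log2 fold change -0.34, edgeR adjusted p = 0.00119) and Hsp90ab1 (-0.26, adjusted p = 0.00898), each lower in 8 of 9 cultures. Of 32 silencing effectors, 0 were called higher and 3 lower (9.38%), with a median of -0.09. Mov10 was higher in 9 of 9 cultures without being called. Cnot7, a deadenylase subunit of the CCR4-NOT complex that shortens the tails of silenced transcripts, ranged from 76.6 to 88.6 CPM in the positive and from 92.3 to 108.7 CPM in the negative fraction, without overlap (-0.38, SE 0.05, adjusted p = 1.63e-05). Pan2, the catalytic subunit of the other deadenylase complex, was lower in 9 of 9 cultures (-0.38, SE 0.07, adjusted p = 0.000417), and Limd1, a LIM protein that binds Argonaute, lay near the threshold (-0.18, adjusted p = 0.0367). The scaffold proteins of silencing, Tnrc6a, Tnrc6b and Tnrc6c, were not among those called. The calls of Ilf2, Tut4 and Limd1 were lost without a filter on low counts (adjusted p = 0.231, 0.193 and 0.223), and those of Tut4 and Limd1 without litter 3 (0.0538 and 0.0848).

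**Figure D5:**
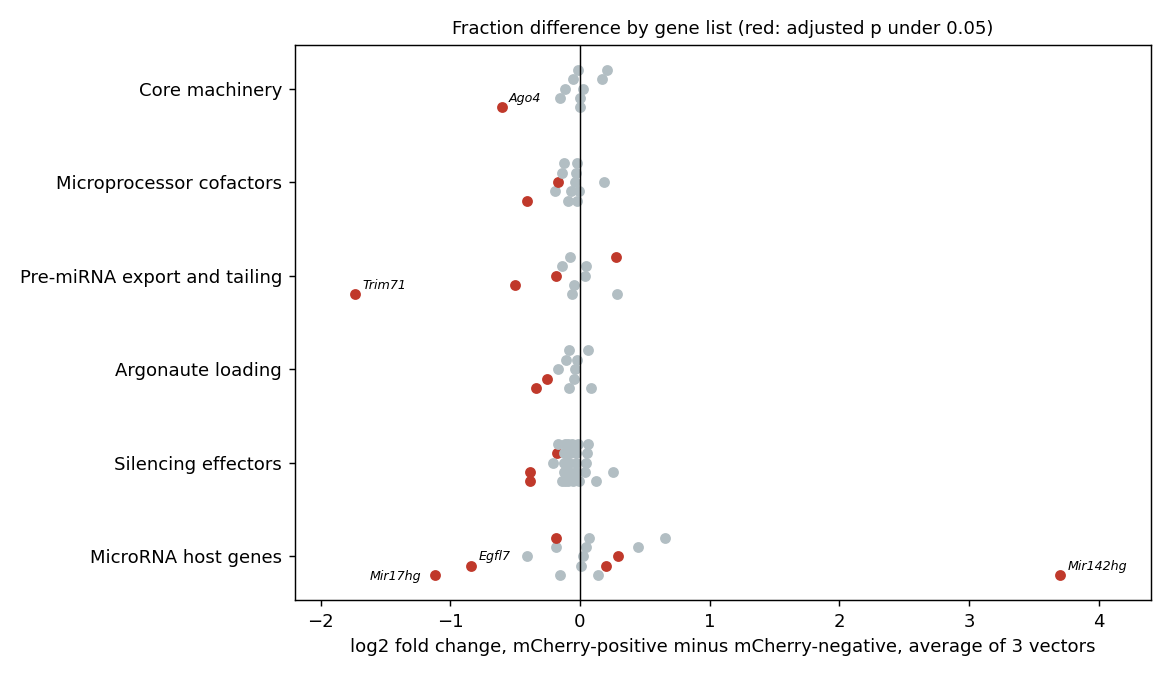
Log2 fold change, mCherry-positive minus mCherry-negative and averaged over the 3 vectors, of the core machinery and of 5 lists of pathway genes, 1 point per tested gene (red where the edgeR adjusted p is under 0.05, with names at over 0.5 log2 units). Most points sit near 0, with Trim71, Mir17hg, Egfl7 and Ago4 to the left and Mir142hg to the right.

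Of 16 microRNA host genes tested, 3 were called higher and 3 lower, with a median of 0.04. That is 37.5% called, near the 33.6% over all genes tested, of which 17.6% were higher and 16% lower. Products of the 6 called hosts are printed to show which microRNAs lie within each host, with the seed in capitals. Host levels are levels of the long transcript and not of the microRNA.
miR-142a-3p, in an intron of Mir142hg (chr11:87756903-87756925): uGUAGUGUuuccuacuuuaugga
miR-126a-3p, in an exon of Egfl7 (chr2:26591402-26591423): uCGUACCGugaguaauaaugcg
miR-26b-5p, in an intron of Ctdsp1 (chr1:74394324-74394344): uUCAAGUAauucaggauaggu
miR-26a-5p, from Ctdspl (chr9:119031811-119031832) and Ctdsp2 (chr10:126995543-126995564): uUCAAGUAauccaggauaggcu
miR-17-5p, in an exon of Mir17hg (chr14:115043684-115043706): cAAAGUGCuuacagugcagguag
miR-20a-5p, in an exon of Mir17hg (chr14:115044183-115044205): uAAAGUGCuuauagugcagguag
miR-18a-5p, in an exon of Mir17hg (chr14:115043867-115043889): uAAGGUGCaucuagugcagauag
miR-19a-3p, in an exon of Mir17hg (chr14:115044048-115044070): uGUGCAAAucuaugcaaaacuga
miR-92a-3p, in an exon of Mir17hg (chr14:115044476-115044496): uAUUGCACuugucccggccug
All lie on the plus strand of GRCm38.p6. Exon here means within the union of exons over all annotated transcripts, so such a place can be an intron in some of them. miR-17 and miR-20a share a seed, as do miR-26a and miR-26b.

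Mir17hg, the host of 6 hairpins of the miR-17-92 cluster, which is known to be needed for full nephron number, was lower in the positive fraction of 9 of 9 cultures. It stood at 10.6, 3.44 and 9.20 CPM in the positive and 12.2, 9.33 and 19.2 CPM in the negative scramble-shRNA libraries of litters 1, 2 and 3. Mylk-shRNA gave 9.68, 2.14 and 9.02 CPM against 23.2, 9.12 and 23.2 CPM, and Rock1/2-shRNA gave 10.6, 3.67 and 6.61 CPM against 15.3, 7.15 and 17.7 CPM. Litter 2 was low in every group, and the error was wide (log2 fold change -1.12, SE 0.34, edgeR adjusted p = 0.0195). The call was lost without litter 3 (-0.997, adjusted p = 0.174) and without a filter on low counts (-1.12, adjusted p = 0.0782).

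Mir142hg, the host of the blood-cell microRNA miR-142, was higher in the positive fraction of 9 of 9 cultures, at 1.03 to 2.22 CPM against 0 to 0.443 CPM (edgeR adjusted p = 7.27e-07). It rested on 81 counts in the positive and 9 in the negative libraries, a ratio of 14.8 after scaling to library totals (exact binomial interval 7.41 to 33.5, which covers counting error only). The 6 macrophage markers moved the same way, as given above beside Ago4, and their part in this result was not tested. Egfl7, a secreted protein of endothelium that hosts miR-126, was lower in 9 of 9 cultures, at 18.1 to 29.0 CPM against 25.3 to 69.3 CPM (log2 fold change -0.84, SE 0.18, edgeR adjusted p = 0.00199). Of the 6 endothelial markers 3 were called lower and 1 higher, with a median log2 fold change of -0.54. Their sums overlapped between fractions, as given above, and their part was not tested.

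The 3 hosts of miR-26, all phosphatases of the RNA polymerase II tail, split by gene. Ctdsp1 was higher in 9 of 9 cultures, at 107.4 to 133.3 CPM against 87.3 to 108.9 CPM (log2 fold change 0.29, SE 0.06, edgeR adjusted p = 0.000359). Ctdsp2 was higher by 0.20 (adjusted p = 0.0348) and Ctdspl was lower by 0.19 on the log2 scale (adjusted p = 0.0416). Both lay near the threshold, lost their calls without a filter on low counts (adjusted p = 0.295 and 0.163) and are named here after their values were seen, as is Nfyc, the host of miR-30c and miR-30e, the natural relatives of the scaffold. Nfyc did not pass (0.14, SE 0.06, adjusted p = 0.0619) but did with litter as a block (0.14, adjusted p = 0.0284). None of the pathway genes was called in a knockdown comparison.

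As a description of which transcripts moved most like the machinery, Pearson's r of log2(CPM + 1) was taken over the 18 libraries against 10727 genes. The closest to Dicer1 were Rbm27 (r = 0.913), Phip (0.893) and Dgkh (0.887), to Drosha Saal1 (0.928), Dgcr2 (0.926) and Gdi2 (0.918), and to Ago2 Arhgef12 (0.953), Usp9x (0.914) and Huwe1 (0.904). For Ago4, taken after its values were seen, they were Hlcs (0.877), Naa16 (0.875) and Kank3 (0.873). Among the members themselves, Ago1 and Xpo5 (0.872), Drosha and Xpo5 (0.833) and Drosha and Ago1 (0.799) varied together, and Ago3 and Prkra went in opposite directions (-0.69). The 18 points share litters, cultures and depth, and Drosha and Ago1 were both low in litter 3.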

How the data were processed

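Poly(A) RNA of 18 sorted cell fractions was sequenced after tagmentation, per the labels' protocols. The authors deposited 1 table of estimated counts, with fractions among 22.1 to 27.4% of a library's nonzero values, and CPM values, which equal the authors' counts scaled to the library sum. Per the submitters' processing notes, tools upstream included fastp 0.24.0, STAR 2.7.11, SAMtools 1.22.1 and featureCounts from Subread 2.1.1, on GRCm39. The settings, the annotation and whether strand was used are not stated in the labels or notes.

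Counts were rounded to whole numbers, and 92 spike-in rows were left out. edgeR 4.0.16 (R 4.3.3) removed low genes (filterByExpr, minimum count 10, minimum total 15), scaled by TMM and fitted its robust quasi-likelihood test to all 18 libraries with 1 mean per group. The Benjamini-Hochberg adjustment ran over 16544 genes, with a threshold of 0.05, and single-gene adjusted p-values are from that test unless another is named. Levels are deposited CPM, fold changes are from the fit, and intervals are 95% intervals. The averaged fraction test was tried on simulated counts drawn without a litter or culture effect. That trial cannot say how the test behaves with the litter pairing described below. Alternatives were DESeq2 1.42.0 (its test and its size factors), no filter, only the compared groups, litter or culture as a block, and leaving out a library or litter 3.

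The replicate number is the litter, per the labels. Deviations from group means correlated with r = 0.237 to 0.639 over 45 library pairs of the same litter and -0.544 to 0.31 over 90 pairs of different litters, so litter pairs the samples. The main fit left this pairing out, so its SEs and intervals hold the spread between litters. The common biological coefficient of variation, a measure of spread between replicates, was 0.165 in the main fit and 0.0987 with litter as a block. Libraries of a group differed beyond sampling noise (chi-square per gene 4.29 to 51.9 over 18 pairs).

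The members and gene lists were chosen with earlier results of these data known. The text names all members, the 2 members of smallest p in a comparison where none was called, up to 4 called genes of each list, and the 3 genes most like Dicer1, Drosha and Ago2. The within-culture Argonaute comparison was added to these, and Ncbp2 and Mov10 were named after their values were seen. Exon lengths, neighbours and overlaps are from GENCODE M21 and microRNAs from RefSeq, both on GRCm38, so no coordinate of the deposited table is printed.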

Additional observations from a re-analysis of the deposited data

Results flagged for a closer look

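Dicer1 went in opposite directions in 2 vectors. Its positive minus negative difference in log2 CPM was above 0 in all 3 Rock1/2-shRNA cultures (0.18, 0.10 and 0.11 in litters 1, 2 and 3) and below 0 in all 3 scramble-shRNA cultures (-0.21, -0.10 and -0.28). The means differed by 0.33 log2 units (0.325). This drew attention because no culture of either vector broke the pattern. The edgeR test of a difference between the 3 vectors did not pass for Dicer1 (unadjusted p = 0.414, adjusted p = 1), and 10 genes with 3 pairs of vectors each were looked through for such a pattern.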

How the results depend on the processing

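The call of Ago4 in the averaged comparison held under every alternative run, with log2 fold changes from -0.67 to -0.54. Litter and culture blocks raised the number of genes called within a vector, to 4019 and 3674 for Mylk-shRNA (2186 without a replicate block), 3369 and 3026 for Rock1/2-shRNA (1859) and 3848 and 3466 for scramble-shRNA (2032), and called 1 member, Ago4, in Rock1/2-shRNA. Apart from Ago4 in Rock1/2-shRNA and Nfyc, the blocks changed no call among the genes given with an adjusted p. With only the compared groups, 1303 genes were called in Mylk-shRNA. Leaving out 1 library gave 1416 to 2438 genes for Mylk-shRNA (lowest without its positive library of litter 1), 1167 to 1560 for Rock1/2-shRNA and 1182 to 2177 for scramble-shRNA (lowest without either litter 2 library in both), 0 to 1 members higher and 1 to 2 lower on average (Ago3 and Prkra, without the Mylk-shRNA negative library of litter 3), and 0 to 1 lower in Rock1/2-shRNA. Members near 0 changed sign. Without litter 3, Ago2 was at 0.137, Dgcr8 at 0.074 and Dicer1 at 0.037, 1 member was called higher (Ago3), Nfyc was called (adjusted p = 0.0293), and Mir17hg (0.174), Limd1 (0.0848) and Tut4 (0.0538) were no longer called. Dgcr8 was at 0.002 with the culture block. Leaving out 1 library gave -0.063 to 0.041 for Ago2, -0.055 to 0.046 for Dgcr8, -0.102 to 0.039 for Dicer1 and -0.043 to 0.086 for Drosha. Leaving out 1 library ended the calls of Ctdspl in 14, Ctdsp2 in 11, Limd1 in 9, Ilf2 in 2 and Mir17hg in 1 of 18 fits. Without a filter, Ctdsp2 (0.295), Ctdspl (0.163), Ilf2 (0.231), Limd1 (0.223), Mir17hg (0.0782) and Tut4 (0.193) lost their calls. Causes were not tested. Ago3 and Ago4 had the lowest counts of the members, down to 27 and 28 in a library, and Ago3 had the largest SE (0.20) in the averaged comparison.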
